A study of Homo sapiens with 55 samples.

Results

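The comparison described here is the loss of GPATCH8 in K562 cells that carry the SF3B1 K700E mutation. It was chosen from the labels and column names: every column with a GPATCH8 guide in K700E cells, against every column with the Renilla guide in the same cells. These are 6 of the 55 samples of the series. GPATCH8 was targeted by 2 guides, numbered 16 and 17, with 1 library each. The control guide targets Renilla luciferase, a gene that human cells lack, and its cells gave 1 library. Each of the 3 libraries has a column for each of 2 sequencing runs. K562 is an established human leukemia line with erythroid features, and the K700E allele was knocked in. Whether the K700E cells are 1 clone is not given in the sources used here.

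The GPATCH8 guides were read beside 5 other K562 backgrounds, each with its own Renilla control. The first is K562 without the K700E knock-in, called WT here, with 2 guides and 1 control library in 2 runs each. The others are cells that overexpress SRSF2 WT, SRSF2 P95H, U2AF1 WT or U2AF1 S34F, with 3 libraries for each guide. None of these shares a library with the K700E comparison.

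SF3B1 is the part of the U2 snRNP that grips the branch point, the adenosine upstream of a 3' splice site to which the 5' end of the intron is first joined. The K700E change, common in myelodysplastic syndromes, lets the spliceosome take branch points that lie further upstream, and with them cryptic upstream 3' splice sites. GPATCH8 and SUGP1 carry a G-patch, a short glycine-rich domain through which proteins stimulate DEAH-box RNA helicases. Very short exons, often called microexons, give the spliceosome little room to pair the splice sites at their ends. They depend on regulators that bind close by.

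What was measured is usage, the share of an event's transcripts that carry the isoform listed first, in percent. That isoform includes the exon in a cassette exon event, is spliced in a retained-intron event, uses the upstream site in an alternative 3' splice site event and the site of the shorter intron in an alternative 5' splice site event. In mutually exclusive exons it has the upstream exon, and in tandem 3' UTR events it has the shorter UTR. Coordinates are hg19 and give the exonic bases on either side of an intron. The depth behind each value is unknown.

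The exons with the largest steady falls in usage were very short. Their sequences, and those of 2 more exons described further on, are shown here because their length sets them apart. Each is from the GENCODE 29 transcripts (GRCh38), written 5′ to 3′, with the exon in capitals and the neighbouring exons in lower case.
DST: tacaggTTCTTCCTGGGAAATCAGtttgga
ACOT9: gCATGTTCATCTATACATGTGAATCATGt
UGGT1: aagGAATGTCCTCCAAGGAAATCTATGatg
TRAPPC13: gcagagAGTGACCTCAGTTCTGTGactgat
AFDN: ccagGAAGTAGACCAGGTTGACCAGaaac
PICALM: atgAATGGCATGCATTTTCCACAATACgca
CLASP2: tcatggcaagAGAgtattcagca

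Before the results, columns that stand apart have to be named. In run 2 of the K700E control the mean usage over 2008 tandem 3' UTR events was 59.6%, against 43% in its run 1 and 42.7% to 43.7% in the 4 sgGPATCH8 columns. The WT sgGPATCH8 columns of run 2 were also high, at 55.3% and 57.2% against 46.6% and 46.7% in run 1, and they enter each comparison with WT cells below. The K700E control's run 2 also gave a value for 78.1% of events, against 74.1% to 75.4% in the other 5 columns. Results are therefore given in each run, and differences were also taken within a run. Of 69 events in erythroid marker genes, 67 to 69 had a value in each of the 6 columns. Of 65 events in lymphoid and monocyte marker genes, 25 to 45 had one, with the most in run 2 of the control. The part of these in the results was not tested.

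The files hold no gene levels, so the guides' action on GPATCH8 could be read only from its own splicing, which does not show whether the protein was lost. GPATCH8 exon inclusion at chromosome 17, 42541912 to 42552197, was 76% and 85% in runs 1 and 2 of the control. It was 85% and 82% with guide 16 and 94% and 89% with guide 17. An 18 nt GPATCH8 exon was included at 4% and 7% in the control and at 1% to 3% with the guides, and another exon at 5% and 11% against 4% to 9%. None of the 3 passed the test in K700E cells (limma adjusted p 0.35 to 0.92). The first of these exons differed by 7 points in K700E and 7.75 in WT cells. In the SRSF2 and U2AF1 panels it went the other way, by -17.33 to -6 points. Of these falls only that with SRSF2 P95H was called (limma adjusted p 0.00082).

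The K700E comparison has 1 control library, and few of its events passed a test across the genome. An event was called where limma's adjusted p was under 0.05 and the group means differed by at least 5 points. Of 50823 events tested in the K700E comparison, 7 were called (0.0138%), 1 higher and 6 lower without GPATCH8. An unadjusted p under 0.05 was found for 5331 events (10.5%), where 2541 would be expected with no change. Among the 2070 tandem 3' UTR events tested it was found for 731 lower and 30 higher ones. These events stand apart in run 2 of the control, as given above. The spread behind these p-values came from the 4 groups of the SF3B1 panel with 2 libraries, and the control was assumed to vary like them. No call remained when either guide's library was left out.

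The called events of named genes lay in DDX11 and WDR60. DDX11 encodes a DNA helicase that serves sister chromatid cohesion. An intron of 400 nt (chromosome 12, 31242424 to 31242825, plus strand) was spliced in 67% and 57% of transcripts in runs 1 and 2 of the control. It was spliced in 4% and 6% with guide 16 and in 5% and 7% with guide 17. In all 4 runs without GPATCH8 the intron was thus almost always kept relative to this junction, and no run came near the control. The fall was 56.5 points, or -4.57 ± 0.22 (SE) on the log2 ratio, with a limma adjusted p of 0.028. From the same 5' splice site, splicing to a site at 31242774 went from 62% and 55% to 4% to 9% (limma adjusted p 0.033). Splicing to another site, at 31242820, was 78% and 73% in the control and 23% to 30% without GPATCH8 (limma adjusted p 0.063). These events share a 5' splice site and are not independent of each other.

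The 3 DDX11 junctions are shown because the usage left without GPATCH8 differed between them, at 4% to 9% for the outer pair and 23% to 30% for the site at 31242820, which was also the most used in the control. The lower-case letters are the exon before the intron, shared by all, and the capitals are the first bases after each 3' splice site.
DDX11 to 31242774: gaagcaggcacgTTGCTGTCCTCT
DDX11 to 31242820: gaagcaggcacgAGAAGAAGAAAG
DDX11 to 31242825: gaagcaggcacgAAGAAAGGAGCT

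WDR60 encodes an intermediate chain of dynein-2, the motor of transport inside cilia. Usage of its 5' splice site at 158697974 on chromosome 7, in place of one 2688 nt upstream, was 5% in both runs of the control. With guide 16 it was 50% and 55%, and with guide 17 it was 42% and 50%. Every run with a guide lay at least 37 points above the control. The rise was 44.2 points, or 3.96 ± 0.26 (SE) on the log2 ratio, and passed the test at a limma adjusted p of 0.035. Without tandem 3' UTR events in the fit the adjusted p of WDR60 was 0.066.

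The other 4 calls were tandem 3' UTR events without a gene name, all lower without GPATCH8, and each rested on run 2 of the control. Their usage in the control was 0%, 1%, 0% and 12% in run 1 and 27%, 45%, 30% and 64% in run 2. With the guides it was 0% to 6% in every run. With the control taken from run 1 alone the first event differed by 0 points, and the next pair were higher without GPATCH8, by 0.75 and 0.5 points. The last one stayed lower, by -8.75 points. Over all 2070 tandem 3' UTR events tested, the median difference was -6.25 points, made of 0 in run 1 and -12.5 in run 2, against -0.5 for all events. No statement on 3' UTR length can be made from this comparison without that column.

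**Figure D1:**
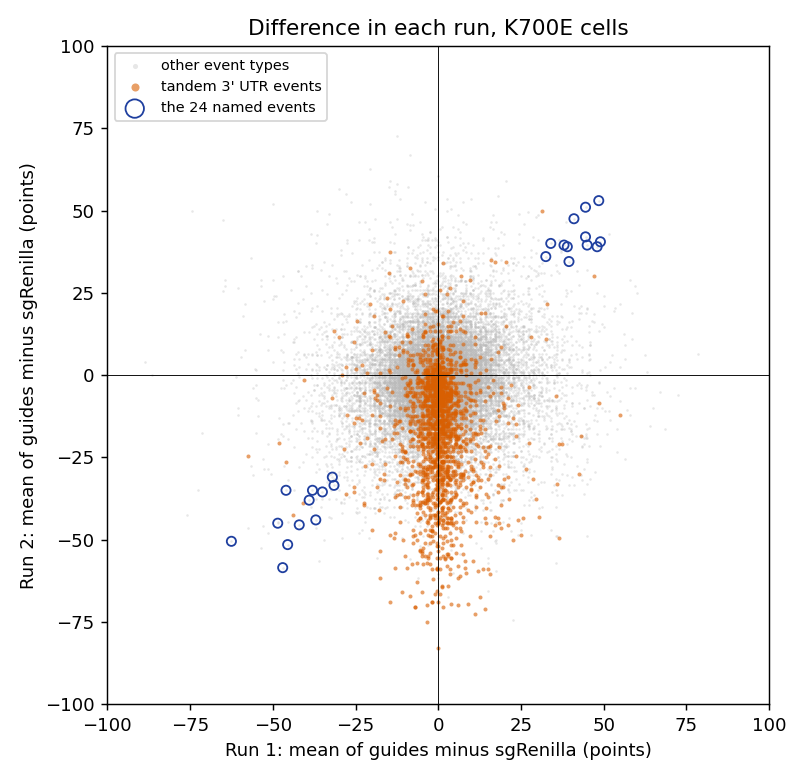
Each point is an event, with the mean of both guides minus the control in run 1 (x axis) and in run 2 (y axis), in percentage points. Tandem 3' UTR events (orange) spread downward in run 2 and stay near 0 in run 1 (medians -12.5 and 0), while the 24 named events (blue circles) lie in the corners, far from 0 in both runs.

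A second measure used each run against the control of the same run, which gives 4 differences for an event. Events with a value in all 6 columns numbered 47976. In 1068 of them (2.23%) all 4 differences were at least 5 points upward, and in 1426 (2.97%) at least 5 points downward. These are called steady below. Ranked by the smallest of the 4 differences, and taking 1 event per named gene, the 12 highest and 12 lowest are described next. They were chosen on these values, which are therefore a description with no test.

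Of the 12 lowest, 5 were cassette exons of 18 to 27 nt. DST encodes dystonin, a linker between cytoskeletal filaments, and its 18 nt exon was included at 65% in both runs of the control. Inclusion was 19% and 25% with guide 16 and 14% and 15% with guide 17. The 27 nt exon of ACOT9, a mitochondrial acyl-CoA thioesterase, was included at 70% and 79% in the control, 32% and 27% with guide 16 and 14% and 14% with guide 17. UGGT1 encodes the enzyme that checks the folding of glycoproteins in the endoplasmic reticulum. Its 24 nt exon was included at 64% and 69% in the control, 27% and 28% with guide 16 and 17% and 19% with guide 17. In these 3 exons, guide 17 lay below guide 16 in every run, and both lay far below the control.

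TRAPPC13, a subunit of the TRAPP complex of vesicle traffic, included its 18 nt exon at 69% and 53% in the control, 33% and 17% with guide 16 and 29% and 19% with guide 17. Both guides lay below the control of their run by 34 points or more. Afadin, the product of AFDN, ties cell adhesion molecules to actin. Its 21 nt exon was included at 64% and 70% in the control, 32% in both runs with guide 16 and 22% and 20% with guide 17. The limma adjusted p for these 5 exons lay between 0.16 and 0.22, so none passed in the K700E comparison.

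The other low events were of several kinds. In MAP3K7, which encodes the kinase TAK1 of NF-kappaB signalling, the upstream 3' splice site 20 nt before the usual one was used in 68% and 58% of control transcripts. It was used in 18% and 22% with guide 16 and in 26% and 24% with guide 17. INTS14 encodes a subunit of the Integrator complex, and its upstream site, 17 nt from the next, was used in 90% and 91% in the control, 42% and 50% with guide 16 and 60% and 56% with guide 17. ACTN4, an actin crosslinker, used the upstream of 2 exclusive exons in 92% and 93% in the control and in 58% to 63% with the guides (limma adjusted p 0.063). MOV10, an RNA helicase, spliced an intron in 82% and 87% in the control and in 47% to 55% with the guides. NICN1 and DDHD2 completed the list with DDX11. In all 12 the runs with a guide did not overlap those of the control, which the ranking on the same values all but fixed in advance. Over all events this held for 6.38% lower and 4.66% higher without GPATCH8.

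The 12 highest events include WDR60, described above. SLC3A2 encodes the heavy chain of an amino acid transporter, and the first of 2 sites 3 nt apart was used in 32% and 30% in the control, 83% and 73% with guide 16 and 77% and 65% with guide 17. RFNG, a glycosyltransferase that modifies Notch, spliced an intron in 19% and 13% in the control, 75% and 61% with guide 16 and 52% and 67% with guide 17. Inclusion of a 56 nt exon of ALDOC, a glycolytic aldolase, was 15% and 14% in the control, 59% and 53% with guide 16 and 50% and 44% with guide 17. In each of these the guides stood clear of the control of the same run by 30 points or more.

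SIRT2, a deacetylase, included a 47 nt exon at 25% and 15% in the control and 53% to 75% with the guides. PTPN2, a tyrosine phosphatase, went from 49% and 53% to 80% to 94% for the upstream of its exclusive exons. ACSL6, a fatty acid acyl-CoA synthetase, did so from 16% and 25% to 53% to 77%. The rest were SAXO2, TROAP, CDHR1, ARNTL2 and HSD11B1L, and their limma adjusted p ran from 0.21 to 0.48. Of the 5 cassette exons among the 12 highest, none was shorter than 47 nt.

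**Figure D2:**
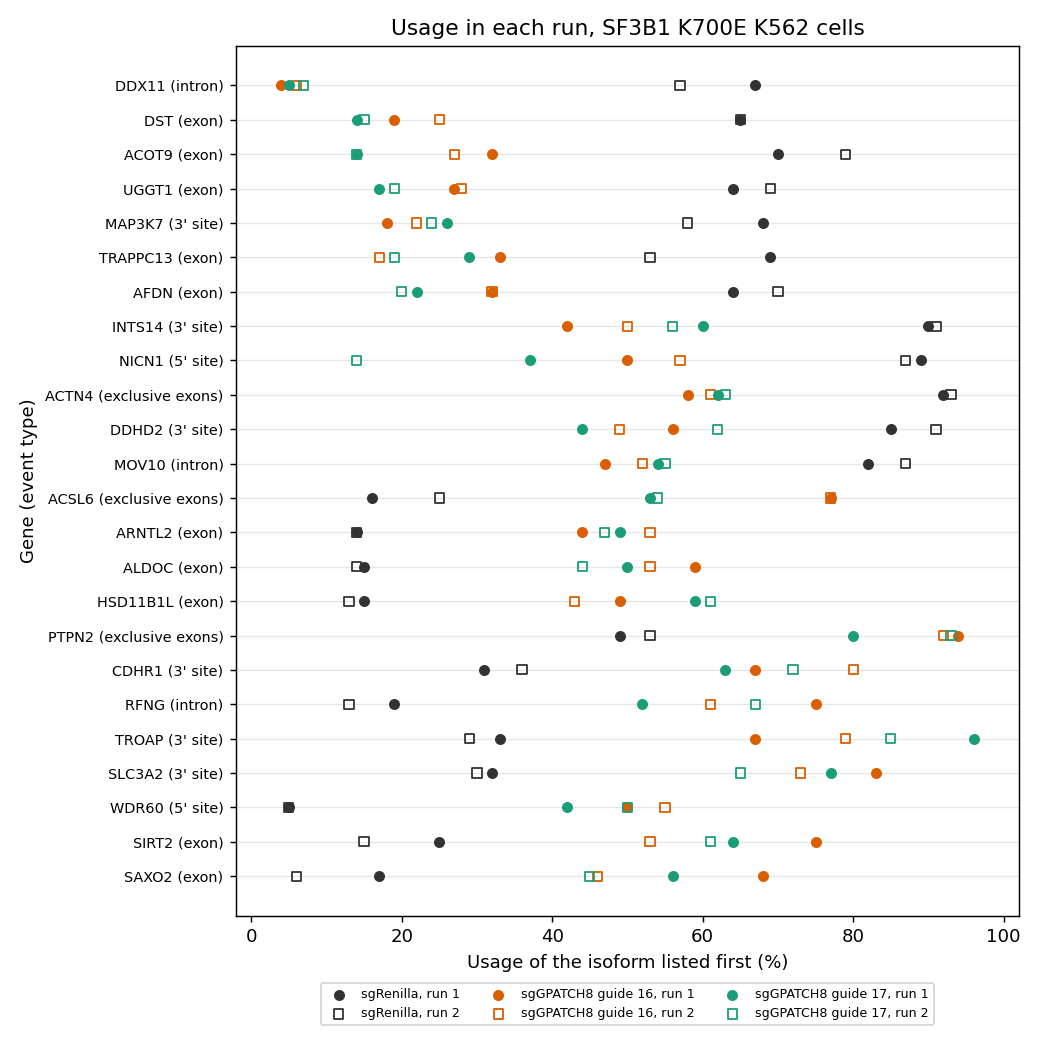
Usage in percent (x axis) of the 24 events with the largest steady differences (y axis), in each run of the control (black), guide 16 (orange) and guide 17 (green), with run 1 filled and run 2 open. The 2 control points of each gene lie on 1 side of all 4 sgGPATCH8 points, as in DST (65% against 14% to 25%) and WDR60 (5% against 42% to 55%).

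Exon length was then read across all cassette exons, a property that the ranking did not use. A length could be given for 18556 of the 22208 cassette exon events with 6 values. The limit of 30 nt for short exons was chosen after the named exons had been seen. Of 407 events with an exon of 30 nt or less, 35 (8.6%) were steadily less included without GPATCH8 and 9 (2.21%) steadily more. Over all exons with a length the shares were 2.97% and 2.34%. For exons of 31 to 50 nt they were 4.83% less and 4.31% more, and for those over 150 nt 2.87% and 2.16%. Exons of 31 to 50 nt were thus above the share over all exons in both directions, and those of 30 nt or less on the lower side. A minority of the shortest class was steady, and its median difference was -0.5 points, as for all exons.

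The same classes were counted in libraries that had no part in the choice. In WT cells 37 of 402 short exons (9.2%) were steadily less and 11 (2.74%) more included without GPATCH8, against 2.09% and 3.37% of all exons with a length. In cells with SRSF2 P95H limma called 43 of 356 short exons lower (12.1%) and 2 higher (0.562%), against 4.01% and 1.88% of all exons. With SRSF2 WT it called 18 of 356 lower (5.06%) and 1 higher (0.281%), against 0.364% and 0.298%. In the U2AF1 panel limma called 3 of 371 short exons lower (0.809%) and none higher in either background. Of all 16500 exons with a length it called 4 lower (0.0242%) in each. Same-numbered U2AF1 libraries were correlated, which calls for the replicate number as a block. With it, limma called 8 of the 371 short exons lower in U2AF1 WT cells, and 11 of all 16500 exons. In U2AF1 S34F cells it called 7 of the 371 short exons lower, and 12 of all 16500 exons. In all 5 backgrounds the share of short exons that was lower exceeded the share over all exons.

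The 35 short-exon events lower in K700E cells lay in 34 genes, since the 27 nt exon of ACOT9 is counted with different upstream 5' splice sites. Of the 35 events, 32 have an exon length that is a multiple of 3, which keeps the reading frame, as do 266 of all 407. In WT cells the difference was downward in 29 of 35, where 60.4% of all short exons were lower. It was steady downward in 18 and steady upward in 2, beside 9.2% and 2.74% of all short exons. In SRSF2 P95H cells 34 could be tested, of which limma called 21 lower and none higher, beside 12.1% and 0.562% of all short exons. In SRSF2 WT cells it called 15 lower and none higher, beside 5.06% and 0.281% of all short exons.

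A few of the 35 are given as examples, picked after their values were seen. FLNA encodes filamin A, an actin crosslinker, and its 24 nt exon was included at 67% and 65% in the control, 41% and 38% with guide 16 and 26% and 27% with guide 17. ABI1 belongs to the WAVE complex that starts actin branches, and its 15 nt exon went from 31% and 34% to 3% to 12%. The 27 nt exon of DIAPH1, a formin that elongates actin filaments, went from 31% and 34% to 15% to 20%. No run with a guide overlapped the control in these 3 exons.

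ACLY, which makes cytosolic acetyl-CoA, included a 30 nt exon at 72% and 76% in the control and at 38% to 46% with the guides. PSAP, the precursor of the saposins that aid lysosomal lipid breakdown, included a 9 nt exon at 19% and 17% and at 7% to 9%. In DNM2, the dynamin that cuts vesicles from membranes, a 12 nt exon was at 76% and 72% and at 65% to 67%. The gaps therefore ranged from a few points, as in DNM2, to more than 40 on average, as in DST. Among the 9 short exons that were higher, DCAF11 (11 nt) went from 74% and 77% to 89% to 93%.

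**Figure D3:**
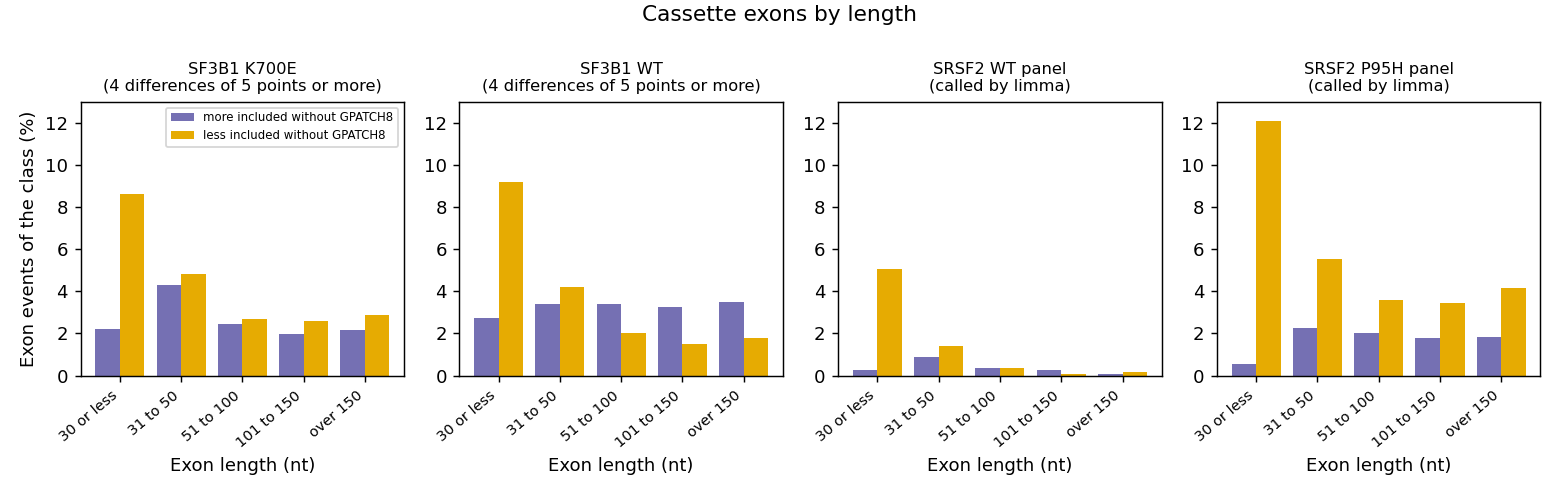
Share of cassette exon events (y axis, percent) that were less (yellow) or more (purple) included without GPATCH8, by exon length in nt (x axis), in K700E and WT cells (all 4 differences at least 5 points) and in the SRSF2 panel (called by limma). In each panel the tallest yellow bar is that of exons of 30 nt or less, 8.6% in K700E and 12.1% in SRSF2 P95H cells.

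The 24 events with the largest steady differences were next followed through the other backgrounds, where their values had not been used. In WT cells 23 of 24 differed in the same direction as in K700E cells, beside 57.4% of all steady events and 48.8% of all tested events. With SRSF2 WT, limma called 12 of 24 in the K700E direction (0.491% of all events called), and with SRSF2 P95H 13 of 24 (4.83%). These were 9 falls and 3 rises with SRSF2 WT, and 9 falls and 4 rises with SRSF2 P95H. Called or not, 10 of 12 falls and 11 of 12 rises kept their direction with SRSF2 WT, and 10 of 12 of each with SRSF2 P95H. With U2AF1 WT limma called 3 of 22 (0.0322%), or 5 of 22 with the replicate block (0.0575% of all events). With U2AF1 S34F it called 3 of 22 (0.0345%), or 6 of 22 with the block (0.0736%). Without the block, all 3 were falls in each U2AF1 background. No event was called in the opposite direction in any of these 4. The sum of 31 fell to between 0 and 7 when 1 replicate number was left out of the panels, which leaves 2 libraries a group.

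DST exon inclusion fell from 78.7% ± 3.2 (SD, n = 3) to 22% ± 5.3 (n = 3) in SRSF2 WT cells, with a limma adjusted p of 0.00078. In SRSF2 P95H cells it fell from 87.3% ± 4 to 34% ± 4.6 (n = 3 each, limma adjusted p 0.00028). UGGT1 exon inclusion fell from 75.3% ± 2.1 to 29.7% ± 7.2 and from 88% ± 1 to 23% ± 1.7 in the same backgrounds (n = 3 each, limma adjusted p 5e-04 and 3.1e-05). ACOT9 passed in all 4, falling from 74.3% ± 4.2 to 25% ± 2.6 in U2AF1 WT cells (n = 3 each, limma adjusted p 0.0047) and from 58.7% ± 1.5 to 10.3% ± 3.5 in U2AF1 S34F cells (n = 3 each, limma adjusted p 0.0017). Among the calls in these 3 exons the falls spanned 45.7 to 65 points. In the U2AF1 panel DST and UGGT1 differed by -56.7 to -35.3 points and did not pass, except that UGGT1 passed with the replicate block (limma adjusted p 0.045 in U2AF1 WT and 0.021 in U2AF1 S34F cells).

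Across the genome, 15 events passed a test of the difference between the genotypes (0.0295%), and MAP3K7 and SLC3A2 were not among them. MAP3K7 differed by -40.5 points in K700E cells, by -5 in WT and by -4 to -1 in the SRSF2 and U2AF1 panels. WT cells used its upstream site in 9.5% of control transcripts, and the controls of the SRSF2 and U2AF1 panels in 5% to 7.3%. On the log2 ratio MAP3K7 differed by -2.5 in K700E, -1.02 in WT and -1.03 to -0.21 in those panels. The difference between genotypes had a limma adjusted p of 0.46 for MAP3K7 and 0.65 for SLC3A2 (43.5 points in K700E, 12.8 in WT). Between DDX11 in K700E and in WT cells it was -7.75 points (limma adjusted p 0.98), and DDX11 was called in WT cells too, among 3 calls (0.0059%).

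**Figure D4:**
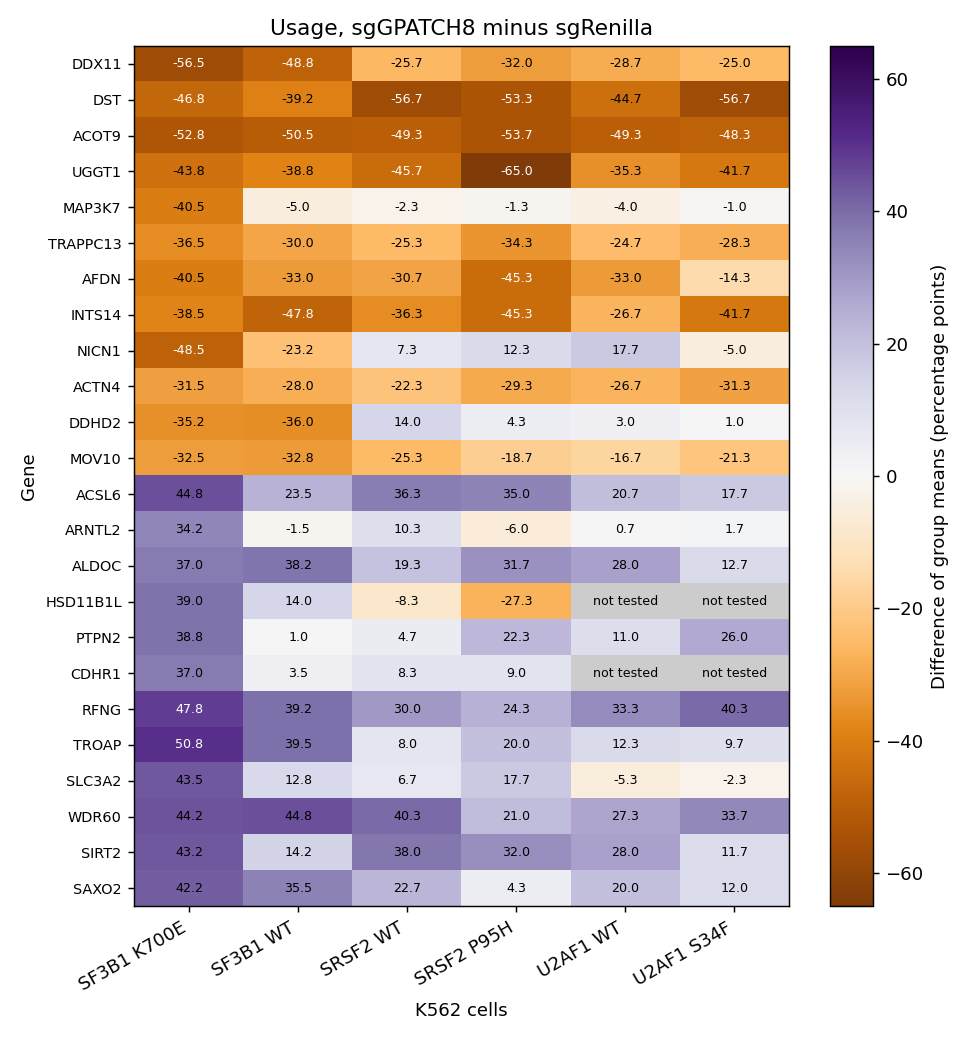
Difference in usage, sgGPATCH8 minus sgRenilla, in percentage points (colour and numbers) for the 24 events (rows) in 6 K562 backgrounds (columns), with untested events in grey. Rows such as ACOT9 (-52.8 in K700E, -53.7 in SRSF2 P95H) keep 1 colour throughout. MAP3K7, with usage of 9.5% or less in the other controls, is strongly coloured in K700E cells alone.

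Taking the choice the other way round, 11 events were called by limma in all 4 comparisons of the SRSF2 and U2AF1 panels. They lie in 8 genes, and 4 of them are overlapping DDX11 introns, 3 with the same 5' splice site. All 11 differed in K700E cells in the same direction as there, in each of the 4 run-matched differences, against 2.23% and 2.97% of events that were steady upward and downward. The set was singled out after its values were seen. ACOT9, ACTN4 and DDX11, described above, are among them, and 4 more genes are described here. KANSL3, part of the NSL chromatin complex, used an upstream 3' splice site in 25% and 24% in the control, 5% and 7% with guide 16 and 6% and 11% with guide 17. ACIN1, which encodes acinus of the exon junction complex, used the 5' site of the shorter intron in 12% and 11% in the control, 31% and 32% with guide 16 and 24% and 28% with guide 17. It was the only one of the 11 that was higher without GPATCH8.

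CLASP2, a protein of growing microtubule ends, included its 3 nt exon at 88% and 96% in the control, 71% and 79% with guide 16 and 64% and 67% with guide 17. PICALM, a clathrin adaptor, included its 24 nt exon at 14% in both runs of the control, 5% in both with guide 16 and 3% and 4% with guide 17. These exons lay at opposite ends of the scale in the control, and in both the guides lay lower.

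The steady events as a whole were read in the same way. Of the 1426 lower ones, 1262 could be tested in SRSF2 P95H cells, where limma called 162 lower (12.8%) and 10 higher, against 2.94% of all events called lower. Of the higher ones, 97 of 935 (10.4%) were called higher and 18 lower, against 1.88% of all. In WT cells steady differences were found for 1616 events upward (3.5%) and 943 downward (2.05%) of 46112. Among those 46112 events, 977 were steady upward in K700E cells, of which 215 were steady upward in WT, 22% of the K700E and 13.3% of the WT events. Downward, 170 events were shared, 12.7% of 1334 in K700E and 18% of 943 in WT. In 29 of the upward and 85 of the downward events WT cells moved steadily the other way.

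The question named in the title of the series concerns mis-splicing by SF3B1 mutations, so genes known to be mis-spliced with K700E were followed as a list. The list holds 41 genes, of which 38 had 278 tested events. None was called, and 30 had an unadjusted p under 0.05, 9 higher and 21 lower without GPATCH8. Steady differences were found in 4 events upward (1.47%) and 8 downward (2.94%), shares near those over all events. The KANSL3 event described above is among the 8. The median difference was -0.5 points in the list and over all events.

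For the 15 genes of the list whose usage differed most between the genotypes in control cells, the K700E control entered both the choice and the difference described, so no count of their directions is given. TMEM14C, a mitochondrial protein needed for heme synthesis, used the upstream of 2 sites 14 nt apart in 59% and 58% in the K700E control. It did so in 60% and 59% with guide 16 and 59% and 58% with guide 17, while the WT control had 5%. DYNLL1, a dynein light chain, had 49% and 48% in the control and 47% to 49% with the guides, against 9% in WT. MTERF2, a mitochondrial transcription factor, had 5% in both runs of the control and 5% to 6% with the guides, against 67.5% in WT. These 3 events stood in the same place with and without GPATCH8 to within a point or so, with standard errors of 0.38, 0.3 and 0.31 on the log2 ratio.

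BRD9, a subunit of a chromatin remodelling complex, used the upstream of 2 sites 10 nt apart in 96% and 97% in the control and in 92% to 97% with the guides (WT 32.5%). In ZNF561, a zinc finger gene, the upstream of 2 sites was at 44% and 56% and at 48% to 57% (WT 90.5%). PPOX, a heme synthesis enzyme, was at 88% in both runs and at 80% to 90% (WT 41%). These runs overlapped in full or in part. DPH5, which acts in the modification of elongation factor 2, was at 39% and 40% in the control, 28% and 31% with guide 16 and 32% in both with guide 17, against 0.5% in WT, and did not overlap. The difference for DPH5 was -8.75 points, or -0.54 ± 0.49 (SE) on the log2 ratio, with a limma adjusted p of 0.78.

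The remaining genes named by that rule lay closer to the K700E control than to WT in both guides, apart from MAP3K7 and SLC3A2. ORAI2, a calcium channel gene, was at 73% and 72% in the control and at 65% to 70% with the guides (WT 9%). The long noncoding RNA CRNDE was at 18% and 11% and at 15% to 21% (WT 74.5%), and DLST, a citric acid cycle enzyme, at 58% and 61% and at 60% to 67% (WT 95%). In SLC3A2 the WT control had 73.5%, beside 31% in K700E and 74.5% ± 4.9 (SD, n = 2) with the GPATCH8 guides. In MAP3K7 it had 9.5%, beside 63% and 22.5% ± 3.5 (n = 2).

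Sequences of some of these 3' splice sites are shown beside that of INTS14, which is not on the list. They were taken because all have a pair of annotated sites 10 to 17 nt apart. Capitals mark the stretch between the upstream and the downstream site, which ends in AG, and lower case marks the exons on either side. INTS14 was steadily lower without GPATCH8, and none of the others shown was steady in either direction. Among the 15 list genes named by genotype difference, DPH5 and MAP3K7, with sites 14 and 20 nt apart, were steadily lower. These genes are not shown because their upstream site is not annotated. The sequences come from the GENCODE 29 transcripts (GRCh38).
INTS14: cacgggCATTTCTTCGTTTATAGctgtct
TMEM14C: tgagaccgCTTGTTTTCTGCAGgtgcaggc
DYNLL1: tctccacgGCCTTGCCCACTAGgtaaccat
BRD9: agctctctggTTTCTTTCAGggcctgccat
MTERF2: acgccgacggTTTATTGCAGggaactgaca
ZNF561: gtcccgtgGGTTTTTTTCCAGggaaccaa

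**Figure D5:**
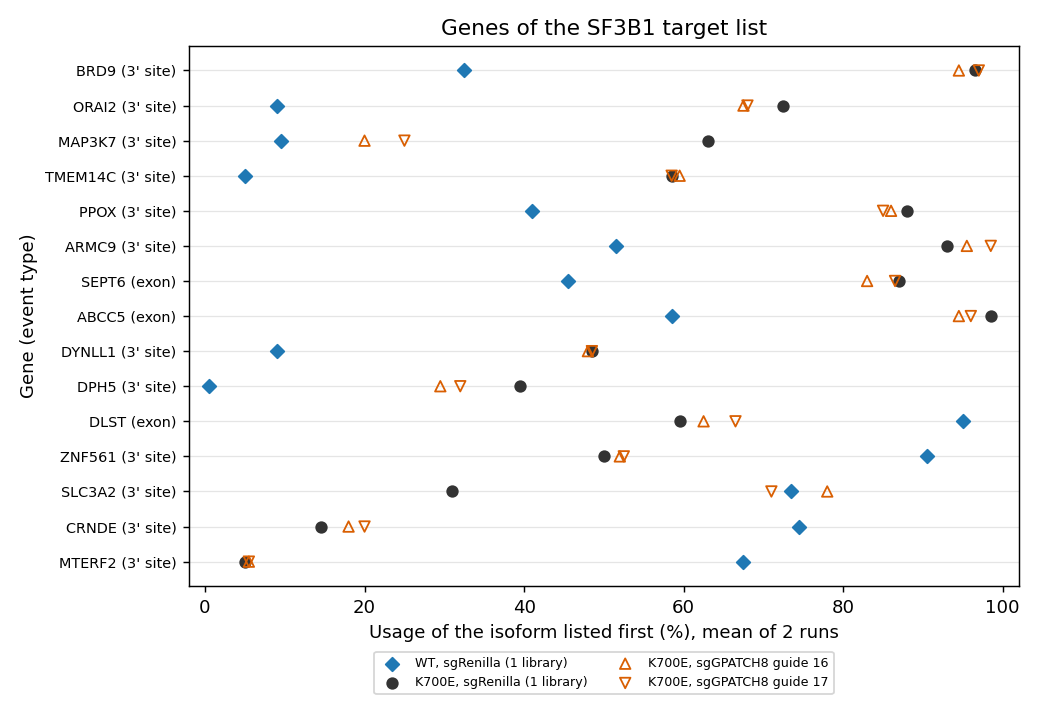
Usage in percent (x axis, mean of 2 runs) of 15 genes of the SF3B1 target list (y axis) in the WT control (blue), the K700E control (black) and the 2 GPATCH8 guides in K700E cells (orange triangles). For TMEM14C the K700E control and both guides lie together near 59% with WT at 5%, while in MAP3K7 the guides lie between the WT and the K700E control.

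By distance between 3' splice sites, steady differences in the class of 10 to 30 nt, where most K700E cryptic sites lie, numbered 38 upward (3.15%) and 46 downward (3.81%) of 1208 events. For sites 3 nt apart they were 126 (2.21%) and 200 (3.51%) of 5691. Among retained introns over 1000 nt, 3 events (0.665%) were steadily more spliced and 16 (3.55%) steadily less spliced without GPATCH8, of 451. Their median difference was 0 in run 1 and -3.5 points in run 2.

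The other gene lists held 2 calls, both in DDX11, of the list for sister chromatid cohesion, where 4 events were steady upward and 5 downward of 91. Most of these 5 are the overlapping DDX11 introns described above, which are not independent of each other. Among 327 events of DNA repair genes 2 were steady upward and 15 downward. SR protein genes had 5 upward and 0 downward of 75, and heme synthesis and mitochondrial iron genes 5 and 0 of 132. NF-kappaB signalling genes had 8 and 4 of 130, SWI/SNF chromatin remodelling genes 7 and 3 of 136, and apoptosis genes 0 and 2 of 132. Genes of the U2 snRNP and branch point factors had none of 50, G-patch protein genes 1 and 1 of 75, and hnRNP genes 1 and 2 of 109. Nonsense-mediated decay genes had 2 and 2 of 37, red cell membrane skeleton genes 3 and 5 of 95, and small nucleolar RNA host genes 1 and 1 of 82. These shares are to be read beside 2.23% and 2.97% over all events, and no difference of a list from other genes was tested.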

How the data were processed

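The authors deposited, for each splicing event and column, a fraction from 0 to 1 with 2 decimals, read from the file values and headers as the usage of the isoform listed first. The submitters' processing notes name hg19, TopHat2 2.0.8b, RSEM 1.2.4 and Bowtie, without saying what each did. Libraries were strand-specific, from polyadenylated RNA, and read from both ends, per the labels' protocols. No file gives reads per value, so depth and counting error are unknown.

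Of 110818 events, 2 had no coordinates. Gene names came from exact intron lengths in GENCODE 29 (GRCh38), with no coordinate converted, and 102609 events (92.6%) were named. Runs of a library were averaged. The labels do not say whether both runs read the same library, and p-values measure only the spread between these libraries.

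Events with a value in all 10 libraries of the SF3B1 panel, a group mean of at least 5% and one of at most 95% were fitted with limma 3.58.1 (R 4.3.3) on log2 of used over not used, 0.01 added to each. P-values were Benjamini-Hochberg adjusted over all events. The fit was tested on simulated data.

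Named events were all calls, the 12 highest and 12 lowest by the smallest run-matched difference (1 per named gene, without tandem 3' UTR events), up to 15 SF3B1 list genes by genotype difference, all tested events of GPATCH8, SUGP1 and SF3B1, and up to 2 events for each other list. The comparison and all lists were chosen with earlier results of these data known. A planned reading in 293T cells was not run, since its columns could not be tied to single labels. No genome of the hg19 build was used, so sequences are those of annotated transcripts. Correlations of same-numbered deviations between the groups compared were 0.123 to 0.357 for U2AF1 WT and 0.089 to 0.266 for U2AF1 S34F. In the SF3B1 and SRSF2 panels they lay between -0.048 and 0.033. The values of 1 gene are not reported here.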

Additional observations from a re-analysis of the deposited data

Results flagged for a closer look

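The difference between the effect of GPATCH8 loss in K700E and in WT cells was tested in the same limma fit, and 15 of 50823 events passed (0.0295%). The only named one was a DNAJC2 exon (chromosome 7, 102965009 to 102966990). Its inclusion differed by 20 points in K700E and -10.2 in WT cells, a difference of 30.25 points (log2 ratio 4.78 ± 0.36 SE, limma adjusted p 0.034). It was 98% in run 1 and 55% in run 2 of the K700E control, and 96% to 98% with the guides. Taken within run 1 the difference was -1.5 points and within run 2 it was 62.

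The other 14 were tandem 3' UTR events without a gene name, all with a lower value in K700E. Their differences in points were -31.75, -23, -50.75, -60, -36, -46.5, -60, -24, -38.5, -37, -62.5, -33, -49 and -38.75 (limma adjusted p 0.01 to 0.048). Within run 1 they lay between -13.5 and 1 points, and within run 2 between -120 and -46. The K700E control used the short UTR at 0% to 13% in run 1 and 27% to 71% in run 2, while K700E cells with a guide stayed at 0% to 10%. In WT cells with a GPATCH8 guide the values were 0% to 21% in run 1 and 17% to 59% in run 2, and the WT control reached at most 14%. The same column of run 2 and the WT guides of run 2 thus carried all 14, and the part of the run in them was not tested.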

How the results depend on the processing

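The K700E calls (7) became 0 from run 1 by itself, 36 from run 2 by itself, 139 (62 higher, 77 lower) where each run counted as a library, 30 at an offset of 0.05, 60 with no filter on group means, 2 without tandem 3' UTR events and 0 with only the groups compared. Leaving out either guide gave 0 to 0. Where limma gave 0 calls, 3971 to 5208 events had an unadjusted p under 0.05. With the control from run 1 only, a setting added after the data were seen, 35 were called (21 higher, 14 lower), and 2 tandem 3' UTR events reversed, to 0.75 and 0.5 points. Both settings that treat a single run like an averaged library, or runs as libraries, count calls liberally. The calls on the difference between genotypes (15) became 0 in run 1, 310 in run 2, 0 with each run as a library, 39 at an offset of 0.05, 111 with no filter, 0 without tandem 3' UTR events, 0 with only the groups compared, 0 with the control from run 1 only and 0 to 0 with a library left out (2862 to 6587 at an unadjusted p under 0.05). The SF3B1 list had 0 calls but for 2, in KANSL3 and MAP3K7, with each run as a library. Calls of the 24 events in the other panels (31) were 0 to 7 with a replicate left out. A missing library allowed gave 8 and 13 calls. Replicate numbers did not pair the SF3B1 panel (correlations of same-numbered deviations -0.005 to 0.018) or the SRSF2 panel (-0.048 to 0.033). The correlations were all positive in the U2AF1 WT groups and, at 0.089 to 0.266, in the U2AF1 S34F groups. With the replicate block there were 0 K700E calls, 0 on the difference between genotypes, 0 in the SF3B1 list and 33 in the other panels (10, 12, 5 and 6 for SRSF2 WT, SRSF2 P95H, U2AF1 WT and U2AF1 S34F). Over all events the block gave 120 calls beside 216 with SRSF2 WT, 1474 beside 2122 with SRSF2 P95H, and 25 beside 14 and 32 beside 15 in the U2AF1 backgrounds. Calls in all 4 numbered 19, the 11 above among them. The differences of the called DDX11 and WDR60 events kept their direction in the settings run, though they were not called in run 1, with only the groups compared, with the block (limma adjusted p 0.18) or with a guide left out (0.22 to 0.26). DDX11 was also not called in run 2, nor WDR60 without tandem 3' UTR events. The cause of these changes was not tested. Depth limits could not be computed.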

Other observations

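Further genes of the lists showed steady differences in K700E cells, none past the test (limma adjusted p 0.17 to 0.36 for those named here). TRA2A, a splicing activator related to SR proteins, used the upstream of 2 exclusive exons in 36% and 35% of control transcripts. It did so in 73% and 54% with guide 16 and in 73% and 52% with guide 17. In WT cells the difference was 26.8 points, beside 27.5 in K700E. A 63 nt exon of EPB41, which encodes a protein of the red cell membrane skeleton, was included at 42% and 51% in the control, 24% and 26% with guide 16 and 19% and 22% with guide 17. It differed by -23.8 points in K700E and -26.5 in WT cells, and by -5.33 to -2 in the other panels, where the control itself included the exon at 5.7% to 11%. The log2 ratio of inclusion to skipping differed by -1 to -0.55 there and by -1.53 in K700E cells.

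SLC25A39, a mitochondrial glutathione carrier, used the upstream of 2 sites 24 nt apart in 36% and 32% in the control, 57% and 52% with guide 16 and 49% and 48% with guide 17. UPF3B, a nonsense-mediated decay factor, included an exon at 23% and 20% in the control, 13% and 6% with guide 16 and 5% in both runs with guide 17. TANK, an adaptor of NF-kappaB signalling, used the first of 2 sites 3 nt apart in 26% and 23% in the control, 70% and 44% with guide 16 and 56% and 77% with guide 17, and differed by -25.5 points in WT cells. The difference between genotypes was not past the test for TANK (limma adjusted p 0.2). ADD2, an adducin of the red cell membrane, used the first of 2 sites 3 nt apart in 73% and 64% in the control and in 88% to 93% with the guides.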
